A study of Mus musculus with 9 samples.

Results

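The comparison described here sets 3 RNA sequencing libraries of mouse embryonic stem (ES) cells with induced deletion of Zbtb11 against 3 libraries of the same engineered line that received only the solvent. They are 6 of the 9 libraries of the study and were chosen by genotype and treatment as labelled. All 6 came from a line of the E14 parent that carries loxP-flanked Zbtb11 on both alleles (Zbtb11lox/lox) and, at the Rosa26 locus, a gene for ERt2-Cre, a recombinase that enters the nucleus when 4-hydroxytamoxifen (4OHT) is present. The ethanol control had ethanol for 72 h and the libraries labelled KO had 250 nM 4OHT for 72 h. These groups thus differ in 4OHT, in activation of Cre and in the deletion together, and the comparison cannot tell these apart. The other 3 libraries, the 4OHT control, are Zbtb11WT/WT cells with an unmodified Rosa26 locus kept with 4OHT for 72 h. They lack both the floxed alleles and Cre, so they differ from the ethanol control in genome and in drug, and their values stand beside the results without a test. Nothing in the labels says that replicates were separate cultures or how many clones the floxed line holds, so p-values speak only of the spread among these libraries, and that spread may be technical.

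Zbtb11 encodes a member of the ZBTB family, nuclear proteins that pair a BTB domain, which mediates contacts between proteins, with C2H2 zinc fingers, which bind DNA. Deleting a regulator of this kind changes first the genes it acts on directly and later the genes that answer to the state of the cell, and a single time point does not separate these. Mouse ES cells divide rapidly, with a short G1 phase, and hold wild-type p53, a transcription factor that switches on cell cycle inhibitors and its own antagonist Mdm2 when the cell is stressed.

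Counts assigned to genes summed to between 16909139 and 23544893 per ethanol library and between 18856863 and 22325943 per labelled KO library. Zbtb11 itself had 348, 359 and 360 counts scaled to library size (CPM, the count of a gene relative to all gene counts after TMM scaling) in the ethanol libraries and 369, 386 and 376 CPM in the labelled KO libraries. Its log2 fold change was 0.09 (SE 0.05, adjusted p = 0.17 by edgeR). The adjusted p was 0.032 when the replicate number was a block and 0.013 when only library totals set the scaling. The sources used here do not name the floxed exons, and reads from the remaining exons are still counted, so this count does not check the deletion and the group is called labelled KO. The 10 ES cell markers were present in all libraries, with a summed level of 4380 to 4770 CPM in the ethanol libraries and 4320 to 4760 CPM in the labelled KO libraries. Markers of fibroblasts or feeder cells summed to 15.8 to 18.6 CPM and 19.1 to 19.8 CPM. These marker sums were scaled by library totals, without TMM.

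The third labelled KO library stood apart in the counts of Lars2 and Gm15564. The gene Lars2, which encodes the mitochondrial leucyl-tRNA synthetase, was assigned 1180 CPM there against 81.7 and 51.5 CPM in the other labelled KO libraries and 32.4, 105.0 and 67.2 CPM in the ethanol libraries. The antisense transcript Gm15564 had 118 CPM there and 2.32 to 6.56 CPM in the other 5 libraries. Neither gene was called (adjusted p = 0.18 for Lars2 and 0.16 for Gm15564). Whether these reads come from the transcripts they were assigned to was not tested.

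Of 16224 genes tested, 4417 (27.2%) were called at an adjusted p under 0.05, with 2110 (13.0%) that rose and 2307 (14.2%) that fell. With the replicate number as a block, 6936 were called, 3311 that rose and 3625 that fell. The balance of directions depended on scaling: 47.8% of calls were rises with TMM scaling and 66.5% with library totals, which gave 3038 rises and 1527 falls. Most changes were small: the 95% interval of 9529 genes (58.7%) lay within 1.5-fold in either direction, and 2173 of these were called. Rises outnumbered falls at 2-fold or more (459 against 188), and falls outnumbered rises at 4-fold or more (73 against 40) and at 8-fold or more (30 against 3). The 2 groups of libraries did not overlap in 6794 of the genes tested (41.9%). This held for 2062 of the 2110 rises and 2258 of the 2307 falls, so a lack of overlap adds little to a call. The count of rises was 1358 without ethanol replicate 2 and 1355 without labelled KO replicate 1, and 71 rises of 4-fold or more were called without ethanol replicate 1.

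**Figure D1:**
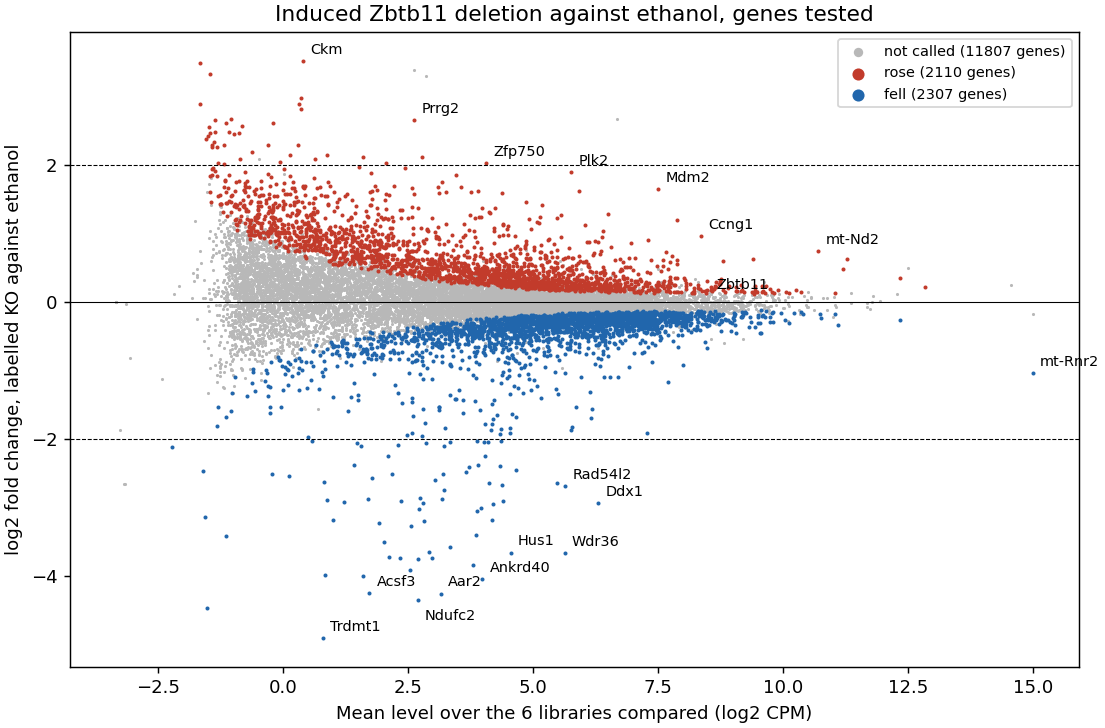
Each point is 1 of the 16224 genes tested, with its mean level over the 6 libraries compared on the x axis (in log2 CPM) and its log2 fold change on the y axis. Red genes rose, blue genes fell, grey genes were not called, and dashed lines mark 4-fold. The steep falls lie at middle levels, while steep rises such as Ckm (3.52) lie at the low end.

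The steep changes sat at different levels of expression in the 2 directions. Genes were ranked by mean level and divided into 10 bins of equal size. Falls of 4-fold or more numbered 13, 18, 12 and 17 in bins 3 to 6 and 0 in the highest bin. Rises of 4-fold or more numbered 25 in the lowest bin and 9 in the next. A mean level of 2 or more in log2 CPM was reached by 4 of the 40 rises and 51 of the 73 falls. In the highest bin 27.6% of genes fell and 9.92% rose, with a median size of 0.24 on the log2 scale among those called. Protein-coding genes made up 97.3% of the 73 falls and 80.0% of the 40 rises. Among noncoding classes, antisense transcripts had 38 rises and 11 falls of 322 tested, long intergenic RNAs 17 and 8 of 138, and small nucleolar RNAs 16 and 0 of 158. Their shares of rises, 11.8%, 12.3% and 10.1%, did not exceed the 13.0% over all genes. Their shares of falls were 3.42%, 5.8% and 0.0%, against 14.2%. Their median levels were low (-0.07, 0.47 and 0.46 in log2 CPM, against 3.86 over all genes). In the lowest bin of all genes 1.42% fell, and in the next 2.22%.

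**Figure D2:**
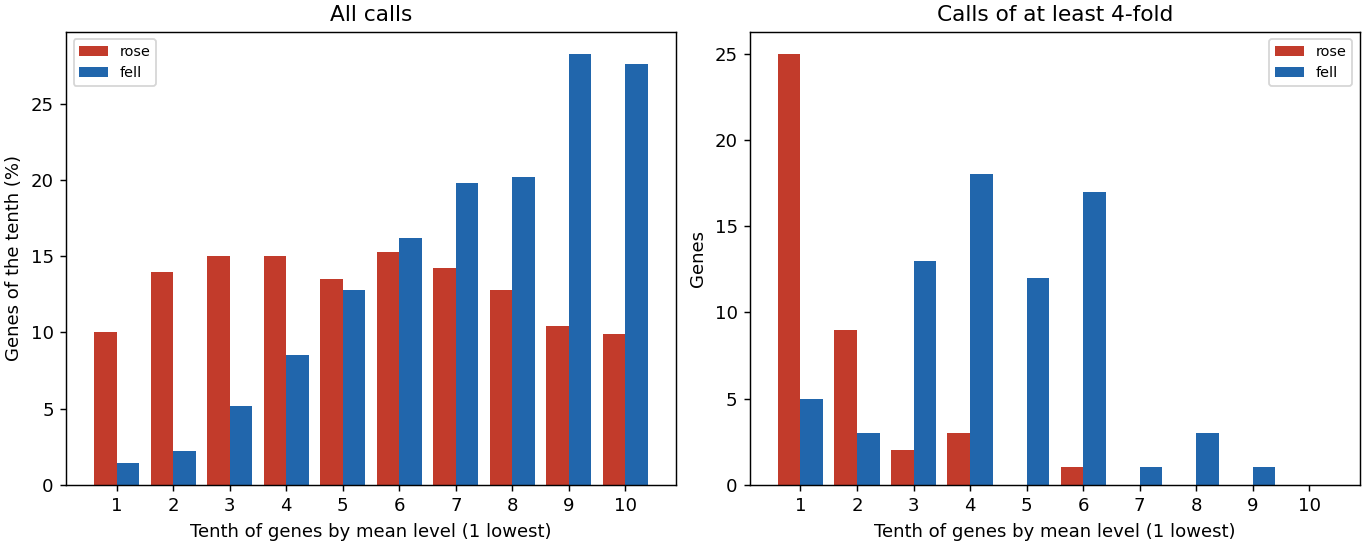
Genes tested were divided into 10 bins by mean level (x axis, 1 lowest). Left: percentage of each bin that rose or fell, where falls go from 1.42% in the lowest bin to 27.6% in the highest. Right: number of genes called at 4-fold or more.

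The genes that fell most belong to many cell functions. Ndufc2, a subunit of respiratory complex I, had 28.8, 27.7 and 28.2 CPM in the ethanol libraries and 1.4, 1.31 and 1.4 CPM in the labelled KO libraries. Aar2, which takes part in assembling the U5 particle of the spliceosome, had 38, 40.6 and 39.7 CPM against 1.91, 3.06 and 1.14 CPM. Ankrd40, an ankyrin repeat protein, had 62.2, 66.8 and 62.0 CPM against 3.86, 3.65 and 4.0 CPM. The groups were far apart in all 3 genes, and the labelled KO level was 4.86%, 5.17% and 6.03% of the ethanol level, with log2 fold changes of -4.36 (SE 0.10, adjusted p = 3.3e-14), -4.26 (SE 0.17, adjusted p = 5.0e-10) and -4.05 (SE 0.08, adjusted p = 6.6e-15). In bulk RNA, fewer cells with a transcript and less of it per cell cannot be told apart. The 4OHT control had 34.2 to 37.1 CPM of Ndufc2, 42.5 to 44.2 CPM of Aar2 and 80.2 to 84.3 CPM of Ankrd40, above the ethanol libraries.

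Proteins of the endomembrane system and nuclear envelope were among them. Zmpste24, the protease that matures prelamin A, had 53.8, 53.5 and 50.5 CPM with ethanol and 4.41, 3.75 and 2.7 CPM with labelled KO (log2 fold change -3.84, SE 0.11). Slc35a3, which carries UDP-N-acetylglucosamine into the Golgi, had 23.9, 22.3 and 21.7 CPM against 2.04, 1.41 and 0.936 CPM (-3.92, SE 0.16). Alg3, a mannosyltransferase that builds the lipid-linked precursor of N-glycans, had 24.4, 22.7 and 22.5 CPM against 1.49, 1.75 and 1.92 CPM (-3.76, SE 0.12). No labelled KO value of these genes came near an ethanol value. Pigq, of the enzyme that starts GPI anchor synthesis, fell by 3.40 on the log2 scale, Zdhhc6, a palmitoyltransferase of the endoplasmic reticulum, by 3.19, and Pex3, which peroxisomes need to form, by 3.50. Pigc, another subunit of the enzyme that holds Pigq, rose: it had 3.19, 3.67 and 2.93 CPM with ethanol and 11.2, 9.92 and 10.2 CPM in the labelled KO libraries (1.67, SE 0.15, adjusted p = 5.3e-07).

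Genes with nuclear roles fell as steeply. Hus1, a subunit of the 9-1-1 clamp that signals DNA damage, had 80.6, 84.1 and 84.1 CPM with ethanol and 5.9, 6.96 and 6.86 CPM with labelled KO (log2 fold change -3.66, SE 0.07, adjusted p = 6.6e-15). Wdr36, a factor of small ribosomal subunit assembly, had 167, 182 and 182 CPM against 14.9, 15.3 and 11.5 CPM (-3.67, SE 0.08, adjusted p = 3.3e-14). Ddx1, an RNA helicase with roles in RNA repair and tRNA splicing, had 208, 227 and 219 CPM against 26.6, 30.7 and 28.3 CPM (-2.93, SE 0.06, adjusted p = 1.3e-14). These were among the most abundant genes with a fall of that size. Others were Nkap (-3.75), a nuclear speckle protein, Mnat1 (-3.05), a subunit of the kinase module of TFIIH, Taf1b (-2.87), of the RNA polymerase I factor SL1, Rbm28 (-2.64), a nucleolar protein, and Rad54l2 (-2.69), a helicase of the Rad54 family. Mtbp, named for binding Mdm2 and needed to start DNA replication, had 31.3, 37.7 and 33.6 CPM against 7.13, 6.81 and 5.56 CPM (-2.39). The Hus1-like gene Hus1b (-3.42) and the pseudogene Mrpl48-ps (-3.14) resemble parent genes that fell, so their reads may not be their own.

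**Figure D3:**
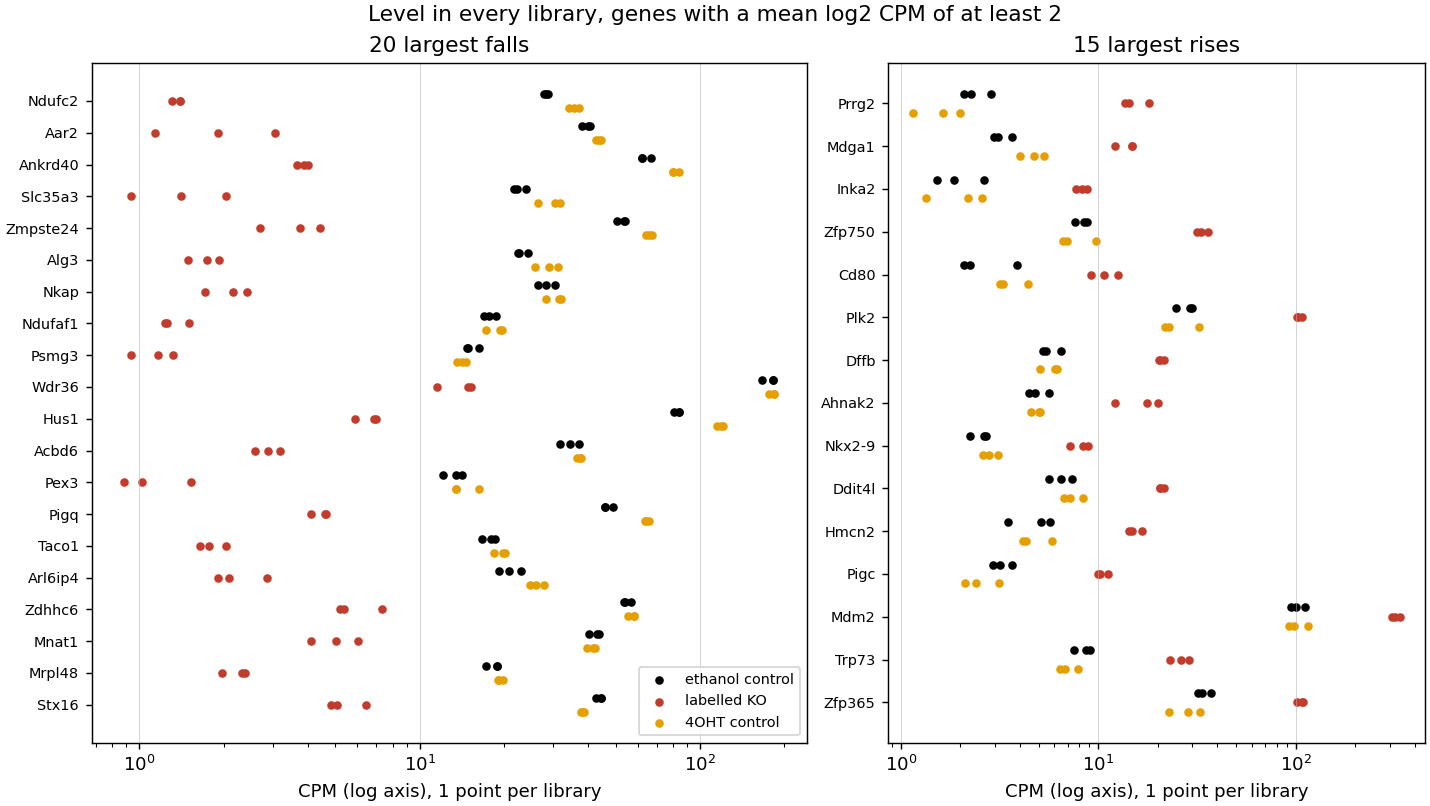
Each point is the level of a gene in 1 library (x axis, CPM on a log scale) for the 20 largest falls (left) and the 15 largest rises (right) at a mean level of 2 or more in log2 CPM. The 3 labelled KO points lie outside the 3 ethanol points in every gene, as the rule for naming them required, and the 4OHT control points lie nearer, on average, to the ethanol points than to the labelled KO points.

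Promoters of the steep falls were examined next. RefSeq promoter sequence, from 250 bases before to 50 bases after the annotated start (build GRCm38.p6), was held for 61 of the 71 protein-coding genes that fell 4-fold or more and for 11248 of 14143 protein-coding genes tested. Among all 8192 words of 7 letters, with each word and its reverse complement counted as 1, the word whose share differed most between these 61 genes and all genes was CGGAACC. At least 1 listed promoter held it in 29 of the 61 genes (47.5%), a value that chose the word and is given as a description. Over all it was 737 of 11248 genes (6.55%). These genes had 1.07 and 1.28 listed promoters on average. The next words, GCGGAAC (31.1%), CCGGAAC (29.5%) and AGGTTCC (27.9%, the reverse complement of GGAACCT), overlap it. Promoter windows of 6 of the steepest falls with the word, and of Ankrd40 without it, are shown from 130 bases before to 20 bases after the start, 5′ to 3′ on the gene's strand, with CGGAACC in capitals. Their positions in GRCm38.p6 are Ndufc2 chr7:97399873-97400022 (plus strand), Zmpste24 chr4:121098191-121098340 (minus strand), Alg3 chr16:20610742-20610891 (minus strand), Hus1 chr11:9011172-9011321 (minus strand), Acbd6 chr1:155557990-155558139 (plus strand), Taco1 chr11:106065961-106066110 (plus strand) and Ankrd40 chr11:94327871-94328020 (plus strand).
Ndufc2: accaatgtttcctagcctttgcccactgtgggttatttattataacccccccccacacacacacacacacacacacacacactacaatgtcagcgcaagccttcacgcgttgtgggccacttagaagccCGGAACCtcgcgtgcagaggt
Zmpste24: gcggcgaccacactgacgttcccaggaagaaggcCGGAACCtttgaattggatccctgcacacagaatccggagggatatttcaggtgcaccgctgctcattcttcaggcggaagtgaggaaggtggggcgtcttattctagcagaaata
Alg3: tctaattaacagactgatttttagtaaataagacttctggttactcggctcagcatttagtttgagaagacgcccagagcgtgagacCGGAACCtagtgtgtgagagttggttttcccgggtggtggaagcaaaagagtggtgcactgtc
Hus1: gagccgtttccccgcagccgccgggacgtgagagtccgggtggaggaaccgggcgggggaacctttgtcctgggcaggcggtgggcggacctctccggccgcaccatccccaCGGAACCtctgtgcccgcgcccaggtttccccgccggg
Acbd6: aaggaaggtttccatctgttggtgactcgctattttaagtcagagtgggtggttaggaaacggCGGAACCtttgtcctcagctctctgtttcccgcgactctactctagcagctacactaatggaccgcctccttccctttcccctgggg
Taco1: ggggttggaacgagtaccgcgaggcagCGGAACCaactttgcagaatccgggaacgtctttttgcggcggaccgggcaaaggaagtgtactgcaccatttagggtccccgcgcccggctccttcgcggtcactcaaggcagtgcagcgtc
Ankrd40: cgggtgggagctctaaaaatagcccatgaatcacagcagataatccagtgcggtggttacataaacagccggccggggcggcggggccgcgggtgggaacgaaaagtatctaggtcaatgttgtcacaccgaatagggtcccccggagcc

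The word began at position -1 in Ndufc2, -96 in Zmpste24, -43 in Alg3, -18 in Hus1, -67 in Acbd6 and -103 in Taco1, where 0 is the first transcribed base. The choice used the genes that fell 4-fold or more and all genes as background, and it used neither the other size classes by themselves nor the strand of the word. Among genes with a promoter, the word occurred in 21 of 79 that fell 2- to 4-fold (26.6%) and 130 of 1621 that fell less than 2-fold (8.02%). It occurred in 464 of 8018 genes not called (5.79%) and in 0 of 21 that rose 4-fold or more. The word lay mostly on the gene's own strand in the steep falls, with 30 matches as written and 3 reversed in the falls of 4-fold or more and 22 and 3 in those of 2- to 4-fold, against 430 and 388 over all promoters. Of the 392 tested genes with the word on their own strand, 18 fell 2- to 4-fold and 66 fell less than 2-fold, besides the 27 that fell 4-fold or more and entered the choice. Of the 345 with it on the other strand only, 3 fell 2- to 4-fold and 64 fell less than 2-fold, besides 2 that entered the choice. Of the 392 own-strand genes 40 rose, and Ankrd40, Slc35a3, Nkap, Pex3 and Pigq fell without the word in these windows.

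**Figure D4:**
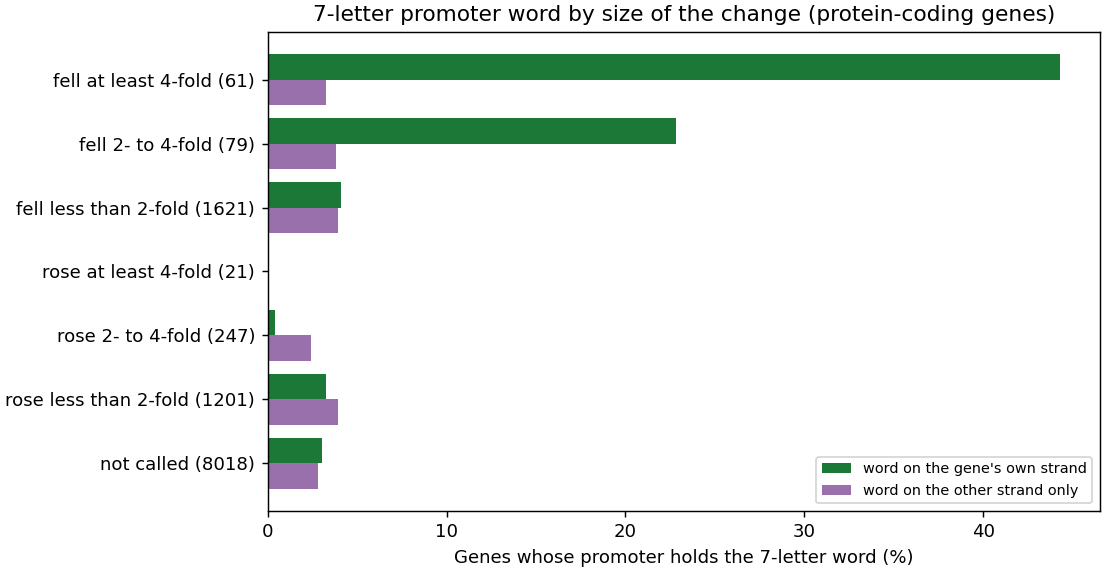
Bars give the percentage of protein-coding genes whose RefSeq promoter holds CGGAACC, by size and direction of the change (number of genes with a promoter in brackets). On the gene's own strand the share was 44.3% for falls of 4-fold or more and 22.8% for falls of 2- to 4-fold, against 3.01% for genes not called, and on the other strand only it was 3.28%, 3.80% and 2.78%.

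Of the 6 motifs listed for this comparison, searched on both strands, CCGGAAG, the core bound by ETS factors such as GABP, was held by 20 of the 61 genes that fell 4-fold or more (32.8%), 29 of 79 that fell 2- to 4-fold (36.7%) and 18.4% of all. It shares 5 letters with CGGAACC. Its share was 18.8% in genes that fell less than 2-fold and 17.5% in genes not called. Among rises it was 4.76% (1 of 21) at 4-fold or more, 6.48% (16 of 247) at 2- to 4-fold and 25.0% (300 of 1201) below 2-fold, so its share did not follow direction alone. The GC box GGGCGG was held by 32.8% of the genes that fell 4-fold or more and 67.7% of all, and the median GC content was 55.3% and 60.3%. The NRF1 core GCGCATGC was held by 0 of the 61 and 5.73% of all, the CCAAT box by 31.1% and 43.0%, the E box CACGTG by 1.64% and 11.6% and the cAMP response motif TGACGTCA by 0 of 61 and 3.47%. A match describes letters and is no measured binding site.

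Genes of the mitochondrion fell in part, and unevenly within complexes. Of 49 large subunit proteins of the mitochondrial ribosome 26 fell and 0 rose (median log2 fold change -0.23, against 0.01 over all genes), and of 33 small subunit proteins 15 fell and 1 rose (median -0.17). With the replicate block the falls were 34 and 19. Mrpl3 had 48.4, 55.5 and 48.3 CPM with ethanol and 7.47, 6.47 and 5.62 CPM in the labelled KO libraries (-2.95), and 9 large subunit genes fell 2-fold or more, among them Mrpl1 (-2.68), Mrpl44 (-2.05), Mrpl13 (-2.03), Mrpl30 (-1.84), Mrpl53 (-1.82, at under 1 CPM in all 6 libraries) and Mrpl58 (-1.28). In the small subunit Mrps31 (-2.64) and Mrps18c (-1.14) did. Mrpl48 (-3.03) has a pseudogene. Falls elsewhere in mitochondrial translation were Gtpbp3 (-2.48) and Trmu (-2.10), which modify mitochondrial tRNAs, and Tars2 (-1.09), a synthetase.

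In the respiratory chain and its supply, single genes fell steeply in lists whose medians stayed near 0. Of 36 complex I subunits 14 fell and 4 rose (median -0.03, or 0.04 with library totals): besides Ndufc2, Ndufs7, which holds an iron-sulfur cluster of the core, had 37.5, 37.4 and 41.6 CPM against 9.76, 11.2 and 11.2 CPM (-1.86), and Ndufa12 fell by 1.1. The rises were 7 with the block. Of the 40 genes for complexes II to V 7 fell (17.5%) and 2 rose (5.0%), against 14.2% and 13.0% over all genes. The falls and rises were 10 and 5 with the block and 4 and 6 with library totals, none of them 2-fold. Assembly genes did reach that size: Ndufaf1 (-3.74) for complex I, Taco1 (-3.28), an activator of translation of the mitochondrial Co1 message, and Atpaf1 (-1.43) for ATP synthase. Of 13 coenzyme Q genes 5 fell and 0 rose, led by Coq3, a methyltransferase of the ring, with 13.2, 13.4 and 13.6 CPM against 3.86, 3.16 and 3.22 CPM (-1.96, SE 0.12). Acsf3, the malonyl-CoA synthetase that feeds mitochondrial fatty acid synthesis, had 12.8, 13.6 and 14.5 CPM against 0.806, 0.73 and 0.572 CPM (-4.25). In that list 3 of 18 fell and 3 rose (16.7% each, near the shares over all genes), or 6 and 4 with the block.

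Iron-sulfur cluster assembly had 2 falls and 1 rise of 30, or 5 and 2 with the block. Fusion, fission and cristae genes had 5 falls and 0 rises of 24 (8 and 4 with the block), protein import 10 and 1 of 39 (17 and 4), and TCA cycle and pyruvate entry 10 and 1 of 35 (18 and 3). With library totals the falls and rises were 3 and 4, 6 and 3, and 4 and 2, so the number of falls depended on the scaling. Of these lists only fusion, fission and cristae lost its downward lean. The largest call of the TCA list was Pdk1, an inhibitor of pyruvate dehydrogenase, at 189, 181 and 190 CPM with ethanol and 98.5, 115 and 121 CPM in the labelled KO libraries (-0.74).

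RNAs made in the mitochondrion moved in both directions. mt-Rnr2, the 16S ribosomal RNA, had 45400, 52600 and 43400 CPM with ethanol and 20800, 22200 and 25600 CPM with labelled KO (log2 fold change -1.04, SE 0.09, adjusted p = 1.4e-05), the largest loss in CPM of any called gene. mt-Nd2, a complex I subunit, had 1350, 1320 and 1210 CPM against 2200, 2240 and 2050 CPM (0.74), and mt-Nd1 rose by 0.62 and mt-Cytb by 0.48. The groups did not overlap in these genes, as in 41.9% of all genes tested. mt-Co1 fell by 0.27. Ribosomal RNA was depleted from these libraries, and the part of depletion in the level of mt-Rnr2 was not tested.

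Genes that modify or process tRNA gave 24 falls and 6 rises of 84, with 9 falls of 2-fold or more (list median -0.08, or -0.01 with library totals). With the block they gave 32 and 10. Trdmt1, which methylates a cytosine of aspartate tRNA, had 8.6, 8.7 and 7.35 CPM with ethanol and 0.17, 0.292 and 0.364 CPM in the labelled KO libraries (-4.91, SE 0.22, adjusted p = 7.8e-11), the largest fall of any named gene. Adat2, the catalytic subunit that makes inosine at the wobble position, had 9.78 to 12.2 CPM against 0.924 to 1.36 CPM (-3.23). Dus1l, a dihydrouridine synthase, had 105, 104 and 102 CPM against 29.1, 32 and 26.6 CPM (-1.83). These groups were well separated. The other falls of this size were the pseudouridine synthase Trub2 (-1.92), Trmu (-2.10), the wybutosine enzyme Tyw5 (-1.67), the splicing endonuclease subunit Tsen15 (-1.57), Cdk5rap1 (-1.18), and Trp53rkb (-2.63), a copy of the kinase of the KEOPS complex whose sister Trp53rka also fell (-2.25), so that reads of the 2 copies may not be separate. Trmt12 (0.60) and Tyw3 (0.49) were among the rises.

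Vesicle traffic between endoplasmic reticulum and Golgi gave 11 falls and 6 rises of 56 (median -0.06, or 0.01 with library totals), of which 5 were falls of 2-fold or more. There were 20 falls and 11 rises with the block, and 10 and 11 with library totals. Without the block and with TMM scaling, 19.6% fell and 10.7% rose, against 14.2% and 13.0% over all genes. The list as a whole thus gives no result. Syntaxin and SNARE genes were among the 5 falls of 2-fold or more: Stx18 (-4.00), Stx16 (-3.01) and Sec22b (-1.78). Sec13, a coat protein of COPII vesicles and of the nuclear pore, had 132, 125 and 127 CPM with ethanol and 38, 40.7 and 39.6 CPM in the labelled KO libraries (-1.70, SE 0.05), and 86.5 to 89.5 CPM in the 4OHT control. Sar1b, the GTPase that starts COPII coats, fell by 2.04. The N-glycosylation list had 8 falls and 7 rises of 54 (12 and 10 with the block). These shares without the block, 14.8% and 13.0%, are near those over all genes, so this list too gives no result. Slc35a3 and Alg3 thus fell in a list with both directions.

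Ribosome assembly and translation divided by component. Ribosome biogenesis had 22 falls and 5 rises of 78 (34 and 7 with the block), with Wdr36 and Taf1b (-2.87) the falls of 2-fold or more and Mphosph10 at 106, 114 and 109 CPM against 63.6, 63.8 and 66.1 CPM (-0.77). Cytosolic ribosomal proteins went the other way: of 80 genes 33 rose and 2 fell (median 0.12, or 0.19 with library totals, where 65 rose and 1 fell, or 60 and 2 with the block), with rises of at most 0.31, in Rps19. Small nucleolar RNAs are cut from introns of host genes, and 6 of 13 hosts rose and 1 fell. Gas5, such a host, had 160, 160 and 150 CPM with ethanol and 261, 257 and 262 CPM in the labelled KO libraries (0.73, SE 0.06). Of 56 cytosolic translation factors 14 fell and 5 rose, or 22 and 10 with the block. With library totals 6 fell and 8 rose, so the direction of this list depended on the scaling.

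Genes that copy DNA fell together by small amounts. Of 58 genes of DNA replication 38 fell and 0 rose, with a median of -0.20 and no fall of 2-fold, and with library totals 27 fell and 2 rose. With the block 45 fell and 2 rose. Tk1, thymidine kinase, had 69.5, 71.3 and 72.1 CPM with ethanol and 44, 51.3 and 44.6 CPM in the labelled KO libraries (-0.61, SE 0.07, adjusted p = 8.6e-06). Pold1, the catalytic subunit of polymerase delta, had 148, 157 and 171 CPM against 109, 117 and 111 CPM (-0.49). The groups did not overlap in either, as in 2258 of the 2307 falls. The falls included the helicase genes Mcm2, Mcm4, Mcm5, Mcm6 and Mcm7 (-0.18 to -0.29), the clamp Pcna (-0.34) and the polymerase alpha and primase subunits Pola1 (-0.36) and Prim1 (-0.31).

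Genes of nucleotide supply fell as well. Of 33 genes of purine and pyrimidine synthesis 16 fell and 1 rose, or 19 and 1 with the block. Dhodh, the mitochondrial enzyme of pyrimidine synthesis, had 35.1, 38.9 and 39.2 CPM against 17, 18.5 and 18.7 CPM (-1.06, SE 0.08), and Nme1, a nucleoside diphosphate kinase, fell by 0.84. Of 31 genes of the pentose phosphate, one-carbon and serine pathways 12 fell and 0 rose (19 and 1 with the block), among them Gldc (-0.49), Mthfd2 (-0.45) and Shmt1 (-0.40).

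Regulators of G1 and of the restriction point changed in both directions. Of 30 genes 11 fell and 5 rose, or 14 and 6 with the block. Cdk2, the kinase that drives entry into S phase, had 75.9, 76 and 79.4 CPM with ethanol and 45.4, 46.9 and 47.7 CPM in the labelled KO libraries (-0.72, SE 0.05, adjusted p = 5.4e-08), and its partner Ccne1 had 219, 239 and 222 CPM against 141, 177 and 143 CPM (-0.56). Cdk6 fell by 0.82. The 5 rises without the block were all in genes that hold back the cycle: the inhibitors Cdkn1a (0.91), Cdkn2b (1.28) and Cdkn2a (0.58) and the pocket proteins Rbl2 (1.23) and Rb1 (0.82). Rbl2 had 9.38, 8.66 and 9.92 CPM against 22.9, 19.8 and 22.5 CPM, and Cdkn1a had 30.4, 26 and 29.8 CPM against 49.7, 53.1 and 59 CPM. The groups did not overlap in these 2 genes, as in 2062 of the 2110 rises. Genes of G2 and mitosis had 9 rises and 4 falls of 50 (median 0.02), or 17 and 9 with the block.

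DNA damage and repair genes had 22 falls and 6 rises of 76 (median -0.06, or 0.01 with library totals), and 29 and 10 with the block. Apart from Hus1 the falls were 0.51 or less, the value of Parp2, a sensor of strand breaks, and included Brca1 (-0.33), Prkdc (-0.37), Atr (-0.25) and Chek1 (-0.22). The rises included Nhej1 (0.84), of end joining, and Ercc5 (0.65), a nuclease of excision repair that is also a listed p53 target.

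Most targets of p53 rose. Of 50 targets 39 rose and 1 fell (42 and 1 with the block), against 13.0% and 14.2% over all genes, with a median of 0.64 and 16 rises of 2-fold or more. Mdm2 had 111, 94.8 and 100 CPM with ethanol and 307, 319 and 338 CPM in the labelled KO libraries (1.65, SE 0.08, adjusted p = 1.6e-09). Plk2, a kinase of the polo family, had 29.3, 24.8 and 29.9 CPM against 103, 101 and 108 CPM (1.90), and Ccng1, cyclin G1, had 257, 221 and 225 CPM against 477, 449 and 447 CPM (0.97). All labelled KO values of these genes lay above all ethanol values, and groups did not overlap in 2062 of the 2110 rises. The 4OHT control had 92.1 to 116 CPM of Mdm2, 21.8 to 32.3 CPM of Plk2 and 200 to 256 CPM of Ccng1, near the ethanol values.

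The p53 list also held Trp73 (1.62), a relative of p53, the antiproliferative gene Btg2 (1.23), the DNA polymerase Polk (1.1), and Lif (1.60), the cytokine that keeps ES cells undifferentiated. Lif had 5.42, 3.94 and 5.68 CPM with ethanol and 16, 13.3 and 15.9 CPM in the labelled KO libraries. Among 39 cell death genes 5 rose and 3 fell, or 10 and 8 with the block. Without the block these shares, 12.8% and 7.69%, do not exceed the 13.0% and 14.2% over all genes. The list as a whole therefore gives no result, and its members are described singly. The rises were Dffb (1.86), a nuclease of apoptosis, Pmaip1 (1.14), Bbc3 (0.70), Apaf1 (0.64) and Mcl1 (0.18). Mcl1 inhibits apoptosis and the others promote it. Trp53 itself was not called (-0.04, adjusted p = 0.67). Feedback genes of p53 rose in 10 of 17 and fell in 2.

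Outside the p53 lists, the steepest rises at a mean level of 2 or more in log2 CPM were in Prrg2, Mdga1, Inka2 and Zfp750. Prrg2, a membrane protein of the Gla family, had 2.87, 2.27 and 2.09 CPM with ethanol and 18, 14.3 and 13.7 CPM in the labelled KO libraries (2.66, SE 0.17, adjusted p = 1.2e-08). Mdga1, a cell adhesion protein of neurons, had 3.09, 2.97 and 3.65 CPM against 14.9, 14.8 and 12.1 CPM (2.12). Zfp750, a regulator of epidermal differentiation, had 8.74, 7.61 and 8.43 CPM against 33, 31.7 and 36.1 CPM (2.02). The groups were well separated in these 3 genes.

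Steeper rises occurred at very low levels. Ckm, muscle creatine kinase, had 0.319, 0.175 and 0.598 CPM with ethanol and 3.95, 4.57 and 3.48 CPM in the labelled KO libraries (3.52, SE 0.30). The neighbouring leukotriene receptor genes Ltb4r1 (2.98) and Ltb4r2 (2.82) and the integrin Itgb2 (2.89) of white blood cells rose from below 0.6 CPM to between 2.5 and 3.82 CPM. Several other low-level rises belonged to the Wnt family of secreted signals. Of 45 Wnt pathway genes 8 rose and 7 fell, or 11 and 13 with the block. These shares, 17.8% and 15.6%, are near the 13.0% and 14.2% over all genes, so the list as a whole gives no result, and its members are described singly. The rises held the ligands Wnt10a (2.49), Wnt3 (1.82), Wnt8a (1.27), Wnt11 (1.15), Wnt9a (1.14) and Wnt6 (0.98), and the falls held Lef1 (-0.79), Sp5 (-0.78) and Notum (-0.85), genes that Wnt signals usually switch on. Wnt3 went from 0.637, 0.787 and 0.837 CPM to 2.5, 2.92 and 2.55 CPM, and Lef1 from 47.2, 49 and 57.7 CPM to 27.8, 31.8 and 29.1 CPM.

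Core ES cell factors stayed near their ethanol level. Pou5f1 had 748, 752 and 766 CPM with ethanol and 672, 744 and 643 CPM in the labelled KO libraries (-0.14, adjusted p = 0.064), and Nanog (0.05, adjusted p = 0.83) and Sox2 (-0.01, adjusted p = 0.95) were not called. Of 37 core and naive factors 11 fell and 0 rose, or 18 and 4 with the block. The falls were small, for example Klf5 (-0.45), Nr0b1 (-0.45), Trim28 (-0.34) and Esrrb (-0.24). Of 22 genes of the LIF and Stat3 pathway 7 fell and 0 rose (10 and 2 with the block), among them the receptor subunit Il6st at 126, 124 and 126 CPM against 92.3, 94.6 and 92.5 CPM (-0.43). In the list of the formative and primed epiblast 8 of 27 fell and 1 rose, or 13 and 4 with the block. The falls included Dnmt3b, a DNA methyltransferase, at 275, 314 and 305 CPM against 186, 208 and 175 CPM (-0.65). The rise was Nodal, a signal of the epiblast, at 60.8, 56.3 and 59 CPM against 119, 131 and 110 CPM (1.03, SE 0.08).

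Genes of the 2-cell-like state rose at low levels. Of 17 tested genes of the 2-cell-like state 11 rose and 0 fell (15 and 0 with the block), with a median of 1.02, and the tested members come largely from multicopy families (Usp17l, Pramef), whose reads may be divided between copies. Zscan4c had 2.37, 2.23 and 2.33 CPM with ethanol, 4.12, 3.21 and 4.89 CPM in the labelled KO libraries (0.82) and 4.03, 2.29 and 2.98 CPM in the 4OHT control, so the 4OHT control overlapped both. Marker sums here were scaled by library totals, without TMM. The 5 matched markers of the 2-cell-like state summed to 7.4 to 9.76 CPM with ethanol, 11.9 to 16.3 CPM with labelled KO and 10.3 to 14.5 CPM in the 4OHT control. The 4OHT control, without Cre, thus lay above every ethanol library and overlapped the labelled KO libraries. Gata6, which marks primitive endoderm, had 1.96, 1.18 and 1.61 CPM against 3.4, 4.43 and 3.07 CPM (1.20). Markers of primitive endoderm summed to 13.2 to 19.3 CPM and 21.8 to 26.6 CPM, and 3 of the 6 tested rose. Those of mesoderm summed to 6.09 to 9.35 CPM and 6.95 to 11.7 CPM, which overlap. In the longer list of primitive endoderm 3 of 16 tested genes rose and 1 fell, 18.8% and 6.25% against 13.0% and 14.2% over all genes. Of 15 tested genes each in the longer lists of trophoblast and of mesoderm and endoderm 2 rose, 13.3% against 13.0% over all genes. The part of such cells in other results was not tested.

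Lipid and sugar metabolism leaned downward. Falls were also more frequent among abundant genes, with 28.3% and 27.6% of genes in bins 9 and 10 by mean level. The lists were not compared with genes of like level. Of 35 genes of cholesterol and fatty acid synthesis 19 fell and 1 rose, or 25 and 2 with the block. Fasn, fatty acid synthase, had 871, 937 and 857 CPM with ethanol and 601, 661 and 675 CPM in the labelled KO libraries (-0.46, SE 0.06). Of 39 genes of glycolysis and the hypoxia response 11 fell and 1 rose, among them the lactate carrier Slc16a3 (-1.09), phosphofructokinase Pfkp (-0.88) and Hk2, hexokinase, at 421, 457 and 475 CPM against 263, 287 and 296 CPM (-0.68). With the replicate block 27 of the 39 fell and 2 rose. In the integrated stress response, the program run by Atf4, 24 of 49 fell and 6 rose, or 30 and 9 with the block. The falls held amino acid carriers and tRNA synthetases, such as Slc7a3 (-0.73) and Wars (-0.60). The rises without the block were Atf5 (0.68), Atf3 (0.65), Gdf15 (0.55), Sesn2 (0.49), Ddit3 (0.38) and Ppp1r15a (0.22), of which Gdf15 and Sesn2 are also listed p53 targets.

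Some lists leaned upward. Of 59 lysosome and autophagy genes 15 rose and 7 fell (median 0.06), with the protease Ctsd at 148, 142 and 156 CPM against 223, 210 and 211 CPM (0.53). The regulators Tfeb (-0.72), Mitf (-0.37) and Tfe3 (-0.19) were among the falls. Of 32 targets of Nfe2l2 and glutathione genes 11 rose and 3 fell (16 and 6 with the block), led by Ephx1 (1.37), which is also a listed p53 target, and the quinone reductase Nqo1 (0.79). Of 46 members of the Zbtb family 12 rose and 3 fell (19 and 9 with the block), including Zbtb7c (1.35), Hic1 (0.86) and Zbtb7a (0.56).

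Single steep falls also stood in lists where only 1 member fell 2-fold or more. The shares of falls in these lists ran from 11.8% to 20.8%, against 14.2% over all genes. Their shares of rises ran from 7.14% to 21.6%, against 13.0%. In 48 genes of chromatin remodelling complexes 10 fell and 4 rose (17 and 5 with the block), and Ino80b, a subunit of INO80, had 10.9, 10.1 and 11 CPM with ethanol and 2.89, 2.87 and 2.5 CPM in the labelled KO libraries (-1.95). In 36 imprinted genes 5 fell and 5 rose (7 and 11 with the block), and Mkrn3 had 5.69, 6.91 and 5.38 CPM against 0.849, 0.73 and 0.78 CPM (-2.92). Ints5, of the Integrator complex that cuts small nuclear RNAs, had 100, 99.7 and 94.1 CPM against 34.5, 34.3 and 32.6 CPM (-1.54). Psmc2, a base ATPase of the proteasome, fell by 1.1 in a list with 6 falls and 3 rises of 42 (10 and 7 with the block, 5 and 11 with library totals). Bbs1, of the ciliary BBSome, fell by 1.47 in a list with 6 falls and 11 rises of 51 (9 and 18 with the block). In each of these genes the labelled KO values lay below every ethanol and 4OHT control value.

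**Figure D5:**
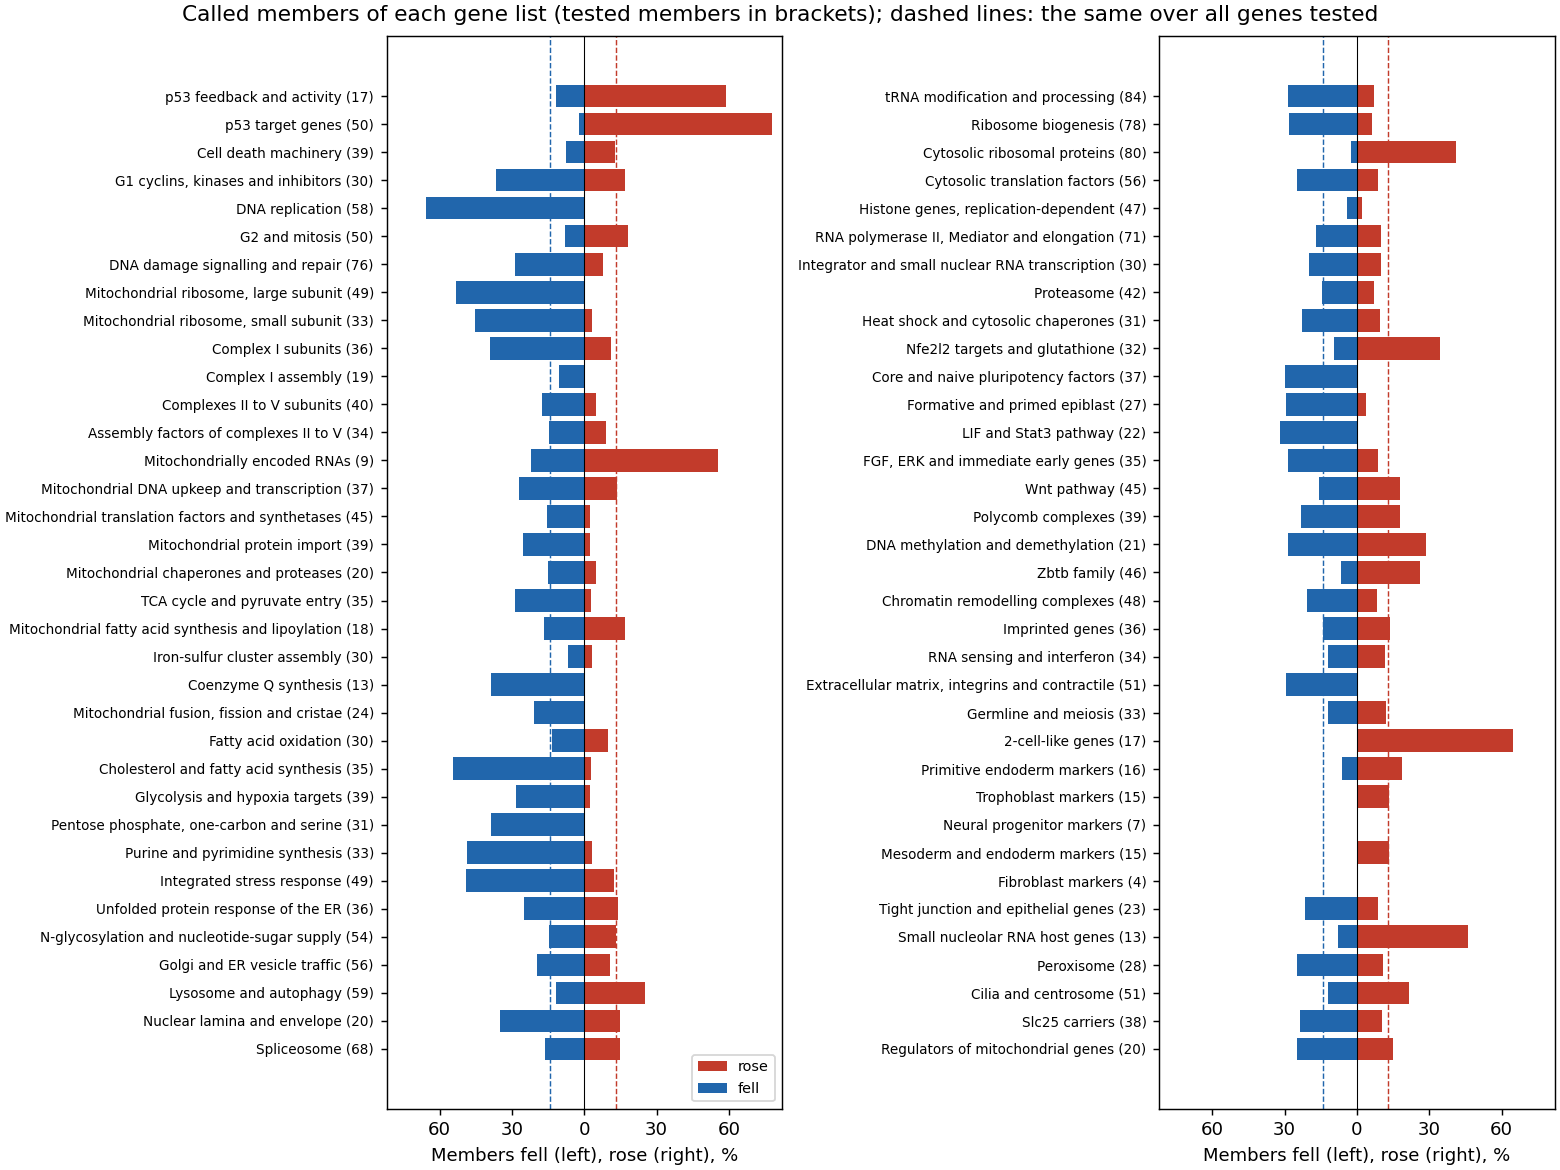
Bars give the percentage of tested members that fell (left, blue) or rose (right, red) in each of the 70 gene lists, with the number tested in brackets. Dashed lines mark 14.2% falls and 13.0% rises over all genes tested, and long bars include rises in p53 targets (78.0%) and 2-cell-like genes (64.7%) and falls in DNA replication (65.5%) and cholesterol synthesis (54.3%). Values are from the fit without the block and with TMM scaling, and the order of the lists differs with the block or with library totals.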

How the data were processed

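RNA was depleted of ribosomal RNA and made into directional libraries, per the labels' protocols. The deposited files hold the authors' raw read counts per Ensembl gene. The submitters' processing notes name cutadapt, STAR, HTSeq and mm9, without the role of each. None of the sources used here gives the strand setting used in counting, and antisense or overlapping genes may share reads. The 5 closing rows that name no gene (26.39% to 33.75% no feature) stayed out of totals and tests. Names came from GENCODE M21 (32620 of 37310 rows).

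From these counts, edgeR 4.0.16 (limma 3.58.1, R 4.3.3; TMM, filterByExpr by group, robust quasi-likelihood F test, 1 mean per group over 9 libraries, 6 residual degrees of freedom) gave log2 fold changes, SE and Benjamini-Hochberg adjusted p over 16224 genes. Genes under 0.05 are called, and "rose", "fell" and "changed" refer to calls. CPM are TMM-scaled. The fit was tested on simulated data. Same-numbered libraries deviated together from their group means (correlations 0.109 to 0.311 in 9 pairs), so the numbers pair them. The replicate block is printed beside many of the results it changes, but not beside all. Alternatives were DESeq2 1.42.0, other scalings and filters, only the 6 libraries, the block and leaving out each library.

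The 70 lists (2663 of 2718 entries matched) and all comparisons were chosen with earlier results of these data known. The lists were described by counts and medians, without a list test and without a comparison to genes of like level. Named genes are Zbtb11; among called genes with a full symbol and groups that do not overlap, the 20 largest falls and 15 largest rises at a mean level of 2 or more in log2 CPM and 6 each from 0 to 2; the 8 largest CPM differences each way; the 10 smallest p; and 3 members with the smallest p per list. Every other gene named, and the promoter word, was chosen after values were seen.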

Additional observations from a re-analysis of the deposited data

Results flagged for a closer look

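Reads that the counting placed in no annotated gene, which enter no gene test, made up 33.3% of the reads on average in the labelled KO libraries (33.75%, 32.71% and 33.41%). They made up 28.67%, 26.39% and 28.07% in the ethanol libraries and 26.67%, 27.02% and 27.5% in the 4OHT control, so the labelled KO libraries lay above all 6 control libraries. The difference was not tested.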

How the results depend on the processing

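No named gene called in the main fit (TMM scaling, no block) or under 1 of the 17 alternatives changed direction between them. A change of sign in a gene called in neither was not counted. Named genes tested numbered 247, but 246 with DESeq2 and without labelled KO replicate 1, and 244 with the 1 CPM filter. The replicate block gave 6936 calls over 9 libraries (3311 rises, 3625 falls) and 6963 over the 6 libraries compared (3338 and 3625), against 4417 (2110 and 2307) without it, and ended no call of a named gene. Library totals gave 1527 falls. Rises of 2-fold or more numbered 300 with DESeq2 (459 in the edgeR fit), and rises of 4-fold or more 17 with DESeq2, 127 with no filter on low counts and 16 with a filter at 1 CPM (40). Leaving out 1 library gave 3067 to 4559 calls, 1355 to 2132 rises, 1709 to 2427 falls, 32 to 71 rises and 70 to 78 falls of 4-fold or more, and 339 to 527 rises and 185 to 199 falls of 2-fold or more. The cause was not tested. Named genes lost their call most often without labelled KO replicate 1 (11) and ethanol replicate 2 (10). Low counts limit the steep rises.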

Other observations

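Genes that start head to head with another tested gene, within 1000 bases on opposite strands in the order of GENCODE M21, were counted after the values were seen. A neighbour counted only if its annotated start lay upstream. Pairs whose annotated genes overlap at their starts were left out, so these counts do not cover all head-to-head pairs. Such a neighbour stood beside 3 of the 73 genes that fell 4-fold or more (4.11%) and beside 9.73% of the 15581 tested genes that could be placed. Zdhhc6 (log2 fold change -3.19) and Vti1a (-2.51), a SNARE of the Golgi, are such a pair, and both fell. Vti1a had 11.8, 9.93 and 9.86 CPM with ethanol and 2.08, 1.51 and 1.92 CPM in the labelled KO libraries. The neighbour of Sar1b is Sec24a, another COPII gene, which was not called (-0.12, adjusted p = 0.16).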
